A study of Homo sapiens with 8 samples.

Results

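PARP9, PARP10, PARP12, PARP14 and the PARP9 partner DTX3L are genes linked to the interferon response, and PARP1 and PARP2 are members of the same enzyme family that work in DNA repair. These 7 genes of the 32080 named on the array were read by 11 probes, found as all non-control probes carrying one of the 7 names, and 10 of the 11 probes entered the tests. PARP10 was chosen by its measured fall in cells given NU6102, and PARP1 and PARP2 were chosen as relatives outside the interferon response. The comparison of NU6102-treated with untreated cells is therefore given as a description, with no test.

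The samples were HCT-116 human colorectal cancer cells, with 2 one-colour arrays for each of 4 groups. WT was the untreated parental line, and WT+NU6102 was the same line kept for 24 h in 20 µM NU6102, an inhibitor of cyclin-dependent kinases that favours CDK2. CDK2-/- (CDK2 KO in the plots) was an untreated CDK2 knockout derivative obtained from a commercial supplier, and R50 was a resistant line grown from the start, and maintained, in 50 µM NU6102. R50 cells were thus kept in the drug and CDK2-/- cells were not, and each of these groups is a single line. The labels give the WT and CDK2-/- cells as untreated and name no solvent control.

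PARP enzymes use NAD+ to attach ADP-ribose to proteins and nucleic acids. PARP1 and PARP2 bind broken DNA and build ADP-ribose chains there, whereas PARP10, PARP12 and PARP14 attach single ADP-ribose units. PARP9 and DTX3L form a complex in which DTX3L is a ubiquitin ligase of the Deltex family, and their genes lie head to head. Type I interferons signal through the kinases JAK1 and TYK2, and their target genes carry the interferon-stimulated response element (ISRE) near their starts. Targets of interferon gamma carry the gamma-activated site (GAS).

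Promoter windows of 300 bases, from 250 before to 50 after an annotated start, were taken from RefSeq on GRCh38.p14, and 6 of the 7 genes matched, all but PARP10. They were searched on both strands for the ISRE core GAAANNGAAA (TTTCNNTTTC on the other strand) and the GAS core TTCNNNGAA, where N is any base. The 30-base stretches around each ISRE core are shown because every interferon-linked gene with a window had one close to a start. Capitals mark the core, and each stretch reads 5′ to 3′ on the strand of the gene named.
PARP9, start 2, minus strand, chr3:122564322-122564351: gggcgcaaagTTTCAGTTTCgcttccctgg
DTX3L, plus strand, chr3:122564322-122564351: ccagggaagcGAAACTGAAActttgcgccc
PARP14, plus strand, chr3:122680800-122680829: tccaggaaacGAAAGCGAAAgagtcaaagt
PARP12, minus strand, chr7:140062942-140062971: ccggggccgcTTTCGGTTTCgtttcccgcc

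The PARP9 and DTX3L stretches are the same bases read from opposite strands. The start of DTX3L lay 38 bases from one PARP9 start and 446 bases from the other, and a single ISRE core at bases 122564332 to 122564341 of chromosome 3 fell in the windows of both genes. It spanned positions -41 to -32 from the nearer PARP9 start and -6 to 4 from the DTX3L start. The core lay at -29 to -20 in PARP14 and at -10 to -1 in PARP12. PARP14 also held a GAS core at -40 to -32, next to its ISRE core, and the 250 bases before its start are shown with both cores in capitals because it was the only window of the 7 genes with both.
PARP14, plus strand, chr3:122680589-122680838: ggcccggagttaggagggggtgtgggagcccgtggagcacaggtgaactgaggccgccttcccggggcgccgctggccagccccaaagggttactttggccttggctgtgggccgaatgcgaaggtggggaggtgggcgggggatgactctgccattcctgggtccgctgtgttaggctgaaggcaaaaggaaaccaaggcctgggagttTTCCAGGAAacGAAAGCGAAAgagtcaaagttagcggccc

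The ISRE core was found in 1255 of 35116 windows (3.57%), in windows of 4.38% of genes, and in 27 of 43 genes with a window (62.8%) on a list of interferon-stimulated genes. The GAS core was found in 7.66% of windows. The PARP1 window held neither core, and the PARP2 window held a GAS core at -154 to -146 and no ISRE core. A match of letters is a description of the window and was not tested as a binding site.

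**Figure D1:**
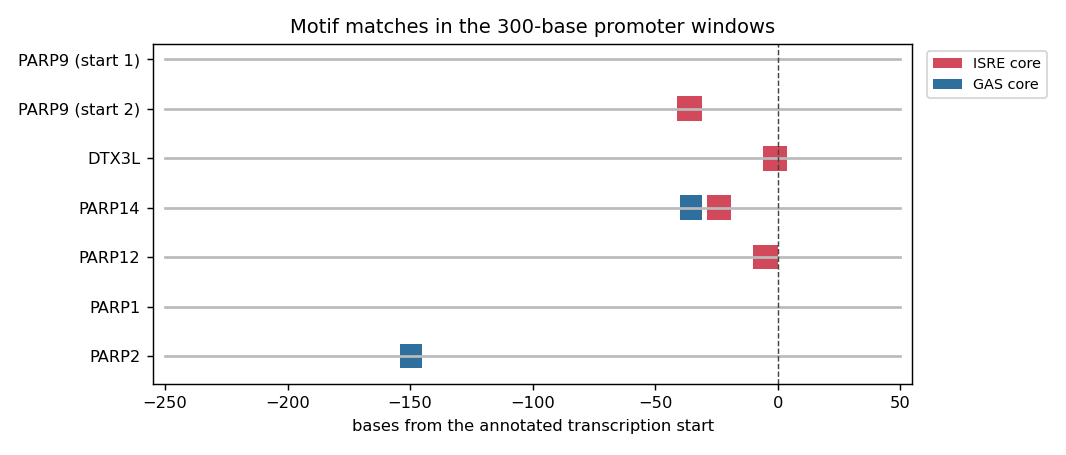
Matches of the ISRE core (red) and the GAS core (blue) along the promoter windows of 6 genes, in bases from the annotated start (dashed line, negative values upstream). The 4 ISRE matches sit close to a start, at -41 to -32, -6 to 4, -29 to -20 and -10 to -1. Those of PARP9 and DTX3L are the same bases, and the windows of PARP1 and the other PARP9 start hold no match.

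Levels are given as normalized log2 signal, the log2 of the scanner's processed intensity minus the array's 75th percentile, so that 0 is the signal at that percentile and a difference of 1 is a doubling. Differences between groups were tested with limma across 28677 probes on all 8 arrays, with Benjamini-Hochberg adjustment over all of them, and a gene was called when its brightest tested probe had an adjusted p under 0.05. Each array gave 32376 to 36206 spots well above background, no spot was saturated, and replicate arrays correlated at 0.99373 to 0.99578 across probes. The design text gives the pairs as biological replicates. The probe for CDK2, the deleted gene, read -0.76 on both WT arrays and -1.56 and -1.51 on the CDK2-/- arrays, a difference of -0.77 (adjusted p = 0.0002677), so a signal remained there. Where this probe lies relative to the deleted part is not given in the sources used here. All 7 epithelial marker genes were well above background on all 8 arrays, as were 4 of 9 immune and stromal markers, while COL1A2 was on none. The epithelial markers had a median log2 difference of 0.33 in R50 against CDK2-/- (4 of 7 called higher) and 0.26 in CDK2-/- against WT (4 called higher), and the 6 tested immune and stromal markers of -0.18 (2 called lower) and 0.56 (3 called higher, 1 lower). In R50 against WT the medians were 0.68 (5 of 7 called higher) and 0.29 (1 called higher, 2 lower). Over all genes tested 15.6% were called higher and 21.2% lower in R50 against CDK2-/- and 17.5% and 15.1% in CDK2-/- against WT. The shares were 10.9% and 13.6% in R50 against WT. The part of the markers in the results below was not tested. In bulk RNA fewer cells that use a gene and less of its RNA per cell cannot be told apart. The CDK2-/- and R50 arrays shared a slide, and the WT and WT+NU6102 arrays shared another, so R50 against CDK2-/- was compared within a slide, whereas slide and group cannot be told apart in CDK2-/- or R50 against WT.

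PARP10, a mono-ADP-ribosyltransferase, had the widest span of the 7 genes. It was chosen by its fall from WT to WT+NU6102, so a wide span was built into the choice. Its bright probe (hg19 chr8:145051321-145051380) read 1.92 and 1.83 on the WT arrays, -2.26 and -2.30 on the WT+NU6102 arrays, -2.52 and -2.54 on the CDK2-/- arrays and 1.04 and 1.14 on the R50 arrays. WT and R50 were high and the other groups low, and no 2 groups overlapped. R50 stood 12.3-fold above CDK2-/- (log2 difference 3.62 ± 0.06 SE, adjusted p = 1.085e-05), and CDK2-/- stood 21.2-fold below the WT arrays on which PARP10 was chosen (log2 difference -4.41 ± 0.06 SE). With normexp background correction these log2 differences were 3.01 and -3.81, and with the mean of both PARP10 probes 1.88 and -2.69. PARP10 was the 44th highest of 19509 genes in R50 against CDK2-/- and the 16th lowest in CDK2-/- against WT. The other PARP10 probe was dim, well above background on 5 of 8 arrays, and its log2 difference of 0.14 (95% interval -0.82 to 1.09) between R50 and CDK2-/- was not called.

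PARP9, which carries macrodomains that bind ADP-ribose, gave the next largest differences. Its brighter probe (hg19 chr3:122247297-122247356) read 1.04 and 0.92 in WT, -2.70 and -2.62 in WT+NU6102, -2.06 and -1.91 in CDK2-/- and 0.05 and 0.04 in R50. No groups overlapped, and here the treated cells rather than the knockout were lowest. R50 exceeded CDK2-/- by 2.03 ± 0.08 (SE) on the log2 scale (adjusted p = 7.155e-05), and CDK2-/- lay below WT with a log2 difference of -2.97 ± 0.08 (SE, adjusted p = 2.754e-05). A second PARP9 probe (hg19 chr3:122250689-122250748) read 0.58 and 0.42 in WT, -2.54 and -2.60 in WT+NU6102, -1.76 and -1.73 in CDK2-/- and -0.33 and -0.37 in R50. It kept the order of the groups with smaller log2 differences, 1.40 for R50 against CDK2-/- (adjusted p = 0.0001559) and -2.24 for CDK2-/- against WT (adjusted p = 4.523e-05).

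DTX3L followed its partner with a smaller span. Its probe (hg19 chr3:122293039-122293098) read 0.86 and 0.74 in WT, -0.90 and -1.11 in WT+NU6102, -1.13 and -1.10 in CDK2-/- and 0.02 on both R50 arrays. The treated and the knockout arrays overlapped, and WT and R50 stood apart from them and from each other. The log2 difference was 1.14 ± 0.08 (SE, adjusted p = 0.0004864) for R50 against CDK2-/- and -1.92 ± 0.08 (SE, adjusted p = 0.0001205) for CDK2-/- against WT. The order of WT over R50 over both WT+NU6102 and CDK2-/- was the same for DTX3L and PARP9, as it was for the other interferon-linked genes. CDK2-/- held 12.8% of the WT signal for PARP9 and 26.4% for DTX3L. A link between these levels and the ISRE core in both windows was not tested.

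PARP14, a large enzyme with macrodomains, read 0.17 and -0.13 in WT, -1.57 and -1.61 in WT+NU6102, -1.31 and -1.40 in CDK2-/- and -0.73 and -0.82 in R50 (hg19 chr3:122437444-122437503). Its groups did not overlap, and its WT arrays differed more than those of any other of the 7 genes. R50 exceeded CDK2-/- by 0.58 ± 0.11 (SE) on the log2 scale (adjusted p = 0.01003), and the call was lost without CDK2-/- replicate 2 (adjusted p = 0.056) and without R50 replicate 1 (adjusted p = 0.05254). CDK2-/- lay below WT with a log2 difference of -1.38 ± 0.11 (SE, adjusted p = 0.000658).

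PARP12, which carries zinc fingers, was measured with 10 spots on each array (hg19 chr7:139723946-139724005). It read 1.48 and 1.43 in WT, 0.61 and 0.51 in WT+NU6102, 0.01 and -0.01 in CDK2-/- and 0.68 and 0.83 in R50. It was the one interferon-linked gene of the 5 whose treated cells lay nearer to R50, by 0.19, than to CDK2-/-, by 0.56, on the log2 scale. R50 exceeded CDK2-/- by 0.76 ± 0.07 (SE, adjusted p = 0.00108), and CDK2-/- lay below WT with a log2 difference of -1.45 ± 0.07 (SE, adjusted p = 0.0001636).

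PARP1, the main enzyme of ADP-ribose chain building at DNA breaks, stayed in a narrow band. Its brightest probe (hg19 chr1:226589945-226590004) read 3.43 and 3.23 in WT, 3.29 and 3.32 in WT+NU6102, 3.26 and 3.16 in CDK2-/- and 2.80 and 2.89 in R50. R50 was lowest and did not overlap the other groups, while the WT arrays overlapped both WT+NU6102 and CDK2-/-. The log2 difference of -0.36 ± 0.08 (SE) between R50 and CDK2-/- was called (adjusted p = 0.02209), but leaving out any CDK2-/- or R50 array ended the call, at adjusted p of 0.1051 and 0.05672 without CDK2-/- replicates 1 and 2 and of 0.09734 and 0.05136 without R50 replicates 1 and 2. A second probe (hg19 chr1:226549161-226549220) read 2.08 and 2.11 in CDK2-/- and 2.01 and 2.04 in R50, a difference of -0.07 that was not called (adjusted p = 0.3848). In CDK2-/- against WT the brightest probe gave -0.11 (95% interval -0.32 to 0.10, adjusted p = 0.356) and the second -0.27 (adjusted p = 0.01785). The remaining PARP1 probe was not well above background on any array.

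PARP2, which works beside PARP1, moved opposite to the interferon-linked genes within the slide. Its probe (hg19 chr14:20825902-20825961) read 3.10 and 3.06 in WT, 3.10 and 3.17 in WT+NU6102, 3.43 and 3.40 in CDK2-/- and 2.83 and 2.82 in R50. The knockout arrays were highest and the R50 arrays lowest, with WT and WT+NU6102 between them. R50 lay below CDK2-/- with a log2 difference of -0.60 ± 0.05 (SE, adjusted p = 0.0006897), and CDK2-/- lay 0.34 ± 0.05 (SE) above WT (adjusted p = 0.005211).

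**Figure D2:**
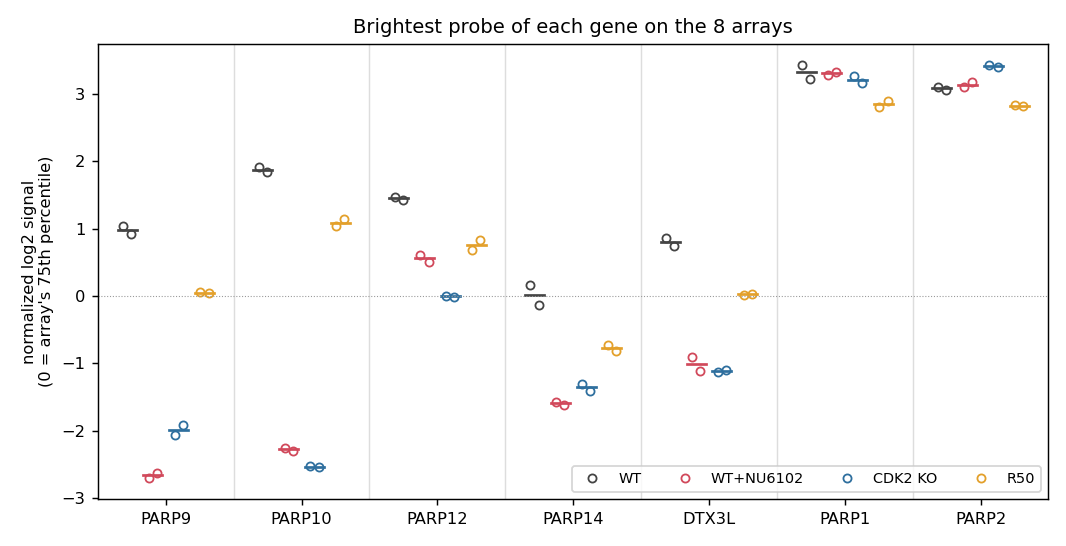
Normalized log2 signal of the brightest probe of each gene, with a circle for each of the 8 arrays and a line at each group mean. In the 5 interferon-linked genes WT is highest, R50 is next, and WT+NU6102 and CDK2 KO are lower, down to -2.70 for PARP9. For PARP12 WT+NU6102 lies only 0.19 below R50. PARP1 and PARP2 stay between 2.80 and 3.43 on every array.

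In R50 against CDK2-/-, all 5 interferon-linked genes were called higher and PARP1 and PARP2 were called lower. Over all 19509 genes tested, 36.7% were called in that comparison, 15.6% higher and 21.2% lower. The median log2 difference was 1.14 for the 5 interferon-linked genes, -0.48 for PARP1 and PARP2, and -0.06 for all genes. With a log2 difference of at least 1 also required, PARP9, PARP10 and DTX3L remained.

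In CDK2-/- against WT, the 5 interferon-linked genes were called lower, with PARP2 called higher and PARP1 not called. All 5 were among the 299 lowest of the 19509 genes, and their median log2 difference was -1.92. Over all genes 32.6% were called, 17.5% higher and 15.1% lower. These arrays also differ in slide, and the WT arrays are those of the comparison that chose PARP10.

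In R50 against WT, all 7 genes were called lower, against 24.5% of all genes called, 10.9% higher and 13.6% lower. PARP10 is counted here although it was chosen on the same WT arrays. The 5 interferon-linked genes lay close together, with log2 differences of -0.93 for PARP9, -0.79 for PARP10, -0.70 for PARP12, -0.79 for PARP14 and -0.78 for DTX3L and adjusted p-values from 0.001609 to 0.006845 for the 4 other than PARP10. R50 held 52.4% to 61.6% of the WT signal of these genes, although CDK2-/- held as little as 4.71% (PARP10) and as much as 38.5% (PARP14). PARP1 differed by -0.48 (adjusted p = 0.01526) and PARP2 by -0.26 (adjusted p = 0.01806). The PARP2 call was lost without any 1 of the WT or R50 arrays, at adjusted p of 0.08805 and 0.0647 without WT replicates 1 and 2 and of 0.06751 and 0.06992 without R50 replicates 1 and 2. The PARP1 call was lost without WT replicate 1 (adjusted p = 0.05693) and without R50 replicate 1 (adjusted p = 0.07121).

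**Figure D3:**
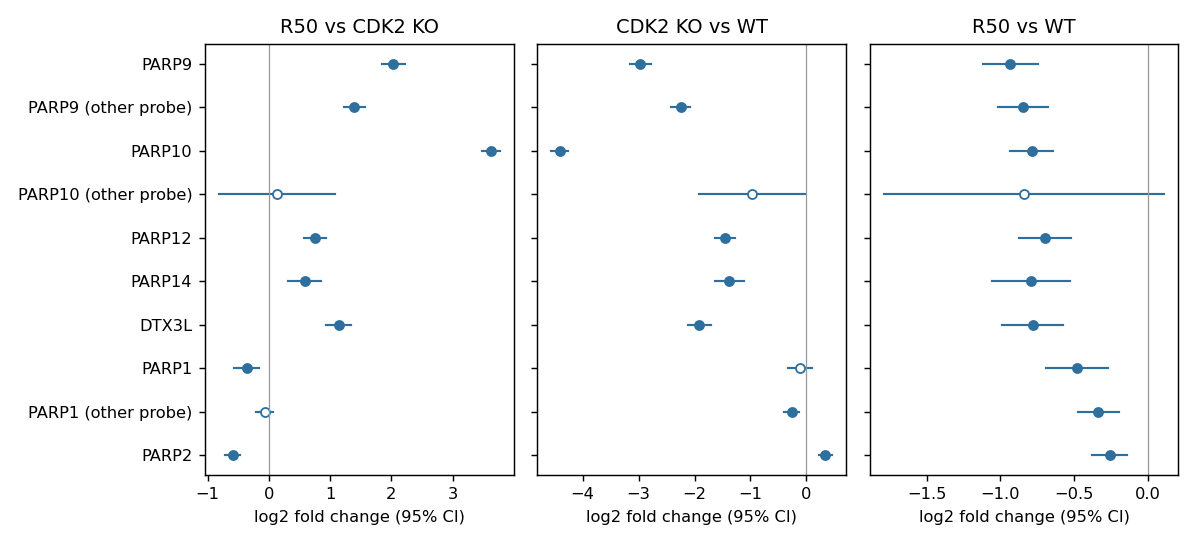
Log2 fold change with its 95% confidence interval (limma) for the 10 tested probes, filled where called at an adjusted p under 0.05. In R50 vs CDK2 KO both PARP9 probes, the bright PARP10 probe (3.62) and the PARP12, PARP14 and DTX3L probes lie right of 0 and the PARP2 probe lies at -0.60, while the dim PARP10 probe has a wide interval in every panel.

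In WT+NU6102 against WT, the contrast that chose PARP10, the log2 differences were -4.15 for PARP10, -3.64 for PARP9, -1.81 for DTX3L, -1.61 for PARP14 and -0.89 for PARP12. The treated cells held 5.62% of the WT signal for PARP10 and 53.9% for PARP12. The brightest probes of PARP1 and PARP2 differed by -0.02 and 0.06, with 98.6% and 104% of the WT signal. The second PARP1 probe read 2.42 and 2.30 in WT and 2.61 on both WT+NU6102 arrays, a log2 difference of 0.25 without overlap. The groups nearest in level were WT+NU6102 and CDK2-/- for PARP9, PARP10, PARP14 and DTX3L, separated by 0.68, 0.26, 0.23 and 0.11 on the log2 scale. The knockout was the higher of these groups for PARP9 and PARP14 and the lower for PARP10 and DTX3L.

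The position of R50 between the knockout and WT differed among the 5 interferon-linked genes. On the log2 scale R50 stood at 82.1% of the distance between CDK2-/- and WT, counted from CDK2-/-, for PARP10. The share was 68.6% for PARP9, 59.3% for DTX3L, 52.0% for PARP12 and 42.3% for PARP14. Against WT the log2 differences of R50 ran only from -0.93 to -0.70 in these genes, and those of CDK2-/- from -4.41 to -1.38. The shares therefore vary mainly with how low the knockout lies. They use the same WT and CDK2-/- arrays as the comparisons above and were not tested.

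Likeness of pattern was measured as the root mean square difference between profiles over the 8 arrays, each centred on its own mean, on the log2 scale. The nearest of the 19509 genes were DDX60, at 0.33, for PARP9, IFIT1, at 0.55, for PARP10, USP18, at 0.09, for PARP12, KLF9, at 0.13, for PARP14 and TEX19, at 0.12, for DTX3L. DDX60 and IFIT1 are antiviral genes induced by interferon, and USP18 removes ISG15 from proteins. The rest of the nearest 5 were SH2D6, IRF9, KLRC3 and MX1 for PARP9, LGALS9C, SAMD9L, CNIH3 and OAS1 for PARP10, IFITM3, CAV3, RAMP1 and IFITM4P for PARP12, TLR3, OAS2, TEX19 and HERC5 for PARP14, and PSMB9, OAS3, ISG15 and SP110 for DTX3L. Of these 24 distinct genes, 13 were on the list of interferon-stimulated genes, which holds 53 of the 19509 genes tested. The profiles include the WT and WT+NU6102 arrays on which PARP10 was chosen. This measure is small between genes that vary little, so pairs among the 7 genes are given with the number of genes closer to each. PARP9 and PARP10 differed by 0.63, with 29 genes closer to PARP9 and 4 closer to PARP10, and PARP14 and DTX3L by 0.24, with 21 and 9 genes closer. PARP9 and DTX3L differed by 0.74, with 50 and 3482 genes closer, and PARP1 and PARP2, both of narrow span, by 0.18, with 2337 and 2149 genes closer.

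Interferon-stimulated genes were listed apart from the 7 genes, and 53 of 55 were tested. In R50 against CDK2-/- 44 were called higher and 2, SP100 and NMI, lower, with a median log2 difference of 1.03. Over all genes tested 15.6% were called higher there and 21.2% lower. In CDK2-/- against WT limma called 49 lower and 0 higher (median -1.58), against 15.1% lower and 17.5% higher over all genes. In R50 against WT it called 37 lower and 0 higher (median -0.71), against 13.6% lower and 10.9% higher over all genes. At an unadjusted p under 0.05 limma gave 0 listed genes higher in CDK2-/- against WT and 2 in R50 against WT. The methods' t-test gave 1 and 0. After Benjamini-Hochberg adjustment the methods' t-test called 24 higher in R50 against CDK2-/-, 29 lower in CDK2-/- against WT and 0 lower in R50 against WT. The 6 with the smallest adjusted p in R50 against CDK2-/- were IFI6, IFIT1, IFI27, IFITM1, IFIT2 and IRF7, with log2 differences of 3.72, 3.55, 5.69, 5.25, 2.41 and 2.46. IFI6, IFI27 and IFITM1 encode small membrane proteins induced by interferon, and IRF7 is a transcription factor of interferon genes. PARP10, at 3.62, and PARP9, at 2.03, lay above the median of this list, and PARP12, at 0.76, and PARP14, at 0.58, below it. Some listed genes that limma called were well above background on few arrays. Among those lower in CDK2-/- against WT were EPSTI1 on 2 arrays, RTP4 on 3 and IFI44L, SAMD9L and XAF1 on 4. Among those higher in R50 against CDK2-/- were TRIM22, IFI44L, SAMD9L and XAF1, each on 4. These genes passed the filter through groups where they were high, and they remain in the counts and medians. Their calls are therefore not independent of the filter. Where a group was not well above background the difference gives only a bound.

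Interferon signals reach these genes through receptors and their kinases. Of 13 listed interferons, receptors and kinases 10 were tested. In R50 against CDK2-/- 3 were called higher and 2 lower, and in CDK2-/- against WT 2 were called higher and 3 lower. Over all genes 36.7% and 32.6% were called in these comparisons. JAK1, a kinase of the interferon receptors, read -1.39 and -1.62 in WT, -1.71 and -1.79 in WT+NU6102, -2.51 and -2.24 in CDK2-/- and -1.54 and -1.62 in R50. It was lower in CDK2-/- than in WT by a log2 difference of -0.87 (adjusted p = 0.004534) and higher in R50 than in CDK2-/- by 0.79 (adjusted p = 0.005328). TYK2, its partner kinase, went the other way, with log2 differences of 0.44 for CDK2-/- against WT (adjusted p = 0.007554) and -0.45 for R50 against CDK2-/- (adjusted p = 0.006281). The probe for IL29, the interferon lambda 1 gene, was named after its values were seen, and it passed the filter through the WT arrays. It was well above background on both WT arrays, on 1 R50 array and on no other, and, as a description, was at least 5.21-fold higher in WT than in CDK2-/-. IL29 is among the 3 counted lower in CDK2-/- against WT. Because it passed the filter only through WT, where it was high, that call is not read as a test.

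Of the 11 other genes of the PARP family 9 were tested. In R50 against CDK2-/- limma called 0 higher and 2 lower, against 15.6% higher and 21.2% lower over all genes. The median log2 difference of the 9 was 0.08. At an unadjusted p under 0.05 limma gave 1 higher and 3 lower, and the methods' t-test gave 0 higher. These 2 were TIPARP, a mono-ADP-ribosyltransferase induced by the aryl hydrocarbon receptor (-0.48, adjusted p = 0.002803), and TNKS2, a tankyrase (-0.71, adjusted p = 0.004004). TIPARP read 0.23 and 0.27 in WT, 1.62 and 1.57 in WT+NU6102, 1.35 and 1.36 in CDK2-/- and 0.94 and 0.82 in R50. It was thus lowest in WT and highest in treated cells, the reverse of PARP9, and its log2 difference between CDK2-/- and WT was 1.10 (adjusted p = 0.000235). In CDK2-/- against WT TNKS2 (0.74) and PARP6 (0.17) were also called higher, and PARP8 (-0.63) and ZC3HAV1 (-0.28), the zinc-finger antiviral protein, lower. The median of the 9 genes there was 0.03. In R50 against WT PARP6 (0.25) and TIPARP (0.63) were called higher and PARP8 (-0.53) lower.

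Of the Deltex relatives of DTX3L only DTX2 and DTX4 of 4 were tested, and neither was called in R50 against CDK2-/-, with log2 differences of 0.05 (adjusted p = 0.4509) and 0.03 (adjusted p = 0.9655). DTX4 was not well above background on the WT or WT+NU6102 arrays, and passed the filter through the CDK2-/- and R50 arrays, where it was, as a description, at least 2.36-fold and at least 2.41-fold higher than in WT.

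A list of 11 genes under ADP-ribose removal also holds genes without that activity, such as the phosphotransferase TRPT1. Of the 11, 3 were called higher and 4 lower in R50 against CDK2-/-, where 15.6% and 21.2% of all genes were called higher and lower. MACROD1, a hydrolase that takes single ADP-ribose units off proteins, read 0.93 and 0.96 in WT, 0.53 and 0.74 in WT+NU6102, -0.04 and 0.07 in CDK2-/- and 1.27 and 1.30 in R50. It was highest in R50, and no groups overlapped. Its log2 difference was 1.27 in R50 against CDK2-/- (adjusted p = 0.0003411), -0.93 in CDK2-/- against WT (adjusted p = 0.00105) and 0.34 in R50 against WT (adjusted p = 0.03719). TRPT1, a phosphotransferase, gave 0.62 in R50 against CDK2-/- (adjusted p = 0.0009954) and -0.44 in CDK2-/- against WT (adjusted p = 0.003537).

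Of 9 PARP1 partners 8 were tested, with a median log2 difference of -0.11 in R50 against CDK2-/-. CHD1L, a chromatin remodeller recruited by ADP-ribose chains, was lower by -0.57 on the log2 scale (adjusted p = 0.001321). CHD1L, like PARP2, was higher in CDK2-/- than in WT, by 0.42 (adjusted p = 0.004051). Of 8 genes of NAD synthesis 7 were tested, with 1 called higher and 2 lower in R50 against CDK2-/-. Over all genes 15.6% were called higher there and 21.2% lower. NAPRT1, which makes a NAD precursor from nicotinic acid, gave -0.33 (adjusted p = 0.006251), and NADSYN1, the NAD synthetase, 0.26 (adjusted p = 0.02276).

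**Figure D4:**
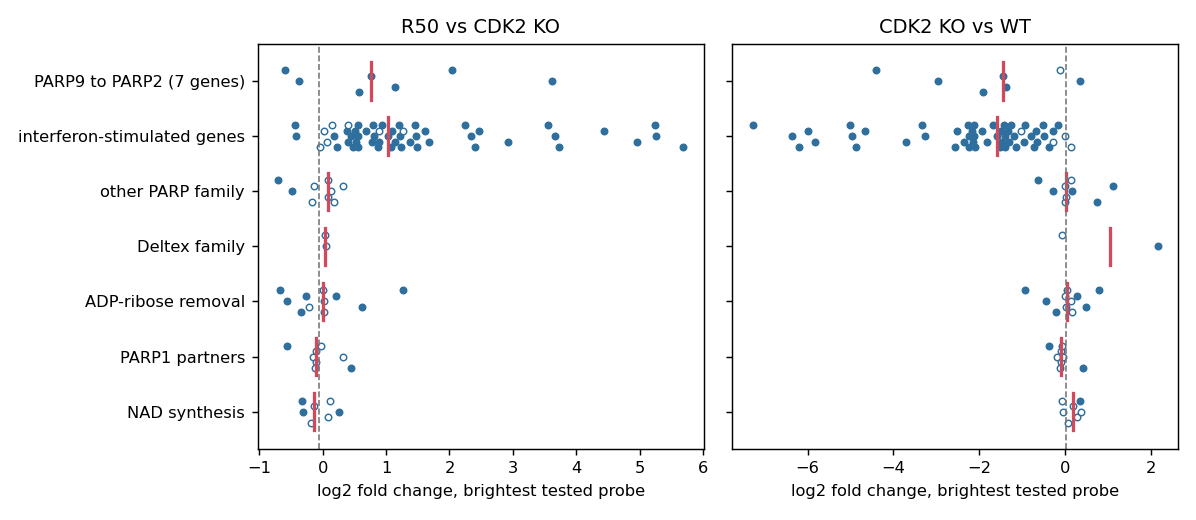
Log2 fold change of the brightest tested probe of each gene in 7 gene lists, filled where called, with the list median in red and the median of all genes tested dashed. The interferon-stimulated genes lie mostly right of 0 in R50 vs CDK2 KO (median 1.03) and left of 0 in CDK2 KO vs WT (median -1.58), and the median of the other PARP genes lies at 0.08 and 0.03.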

How the data were processed

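Total RNA of 8 HCT-116 cultures was labelled with Cy3 and hybridised to Agilent SurePrint G3 arrays. The deposited scanner files hold intensity per spot (Agilent Feature Extraction 11.5.1.1, per the submitters' processing notes), and the value table deposited by the authors holds log2 values centred per probe, which served as an alternative. For the arrays the methods used one-way ANOVA in GeneSpring, with Benjamini-Hochberg correction at a stricter cutoff than here and a Student-Newman-Keuls post hoc test. The t-test called the methods' t-test here is the one they name for experimental groups in general, not their array test. Here log2 of the processed signal minus each array's 75th percentile was averaged over spots of a probe. Control spots and outlier flags were left out, and a probe was tested if both arrays of any group read it well above background (28677 of 50599) with limma 3.58.1 in R 4.3.3, without a replicate block. A gene was represented by its brightest tested probe. Probe positions are those of the array annotation (hg19), and their exons are not analysed here. The number of arrays, 2 per group, limits the precision.

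The 7 genes and all gene lists were chosen with earlier results of these data known. Beyond the 7 genes, each list names the 2 genes with the smallest adjusted p in R50 against CDK2-/- and any called there with a log2 difference of at least 1, up to 6, and the 5 nearest profiles of each interferon-linked gene. Alternatives covered background correction, normalization, filters, tests, the replicate block and each array left out. A listed gene that the rule names is not reported here. The script was tested on simulated data.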

Additional observations from a re-analysis of the deposited data

Results flagged for a closer look

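The changes of CDK2-/- and of R50 cells against WT differed for all 7 genes with every array kept. The test was the direct limma comparison of R50 with CDK2-/- (adjusted p under 0.05), in which 36.7% of all genes tested were called. These groups share a slide, and the WT arrays do not enter the difference between them. The WT and WT+NU6102 arrays do enter the estimate of spread, and so the adjusted p. On the log2 scale R50 minus CDK2-/- was 3.62 for PARP10, 2.03 for PARP9, 1.14 for DTX3L, 0.76 for PARP12 and 0.58 for PARP14. The difference was -0.36 for PARP1 and -0.60 for PARP2. The PARP1 call was lost without any 1 of the CDK2-/- or R50 arrays and was not made by the second PARP1 probe (-0.07, adjusted p = 0.3848), and the PARP14 call was lost without CDK2-/- replicate 2 or R50 replicate 1. PARP2 is the gene whose changes against WT had opposite signs, 0.34 in CDK2-/- and -0.26 in R50. With 2 arrays in each group no single array could be examined as standing apart.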

How the results depend on the processing

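No log2 difference of the 7 genes changed sign in any of the 3 comparisons under any alternative. With a log2 difference of at least 1 also required, 3 genes were called in R50 against CDK2-/- and 0 in R50 against WT. The methods' t-test (equal variances) called the same number of genes before adjustment as limma, 7, 6 and 7. After Benjamini-Hochberg adjustment it called 4 in R50 against CDK2-/-, 4 in CDK2-/- against WT and 0 in R50 against WT. Over all probes tested it called 9692, 9580 and 7420 in these comparisons before adjustment and 2167, 1434 and 13 after it. Leaving out 1 array at a time gave 5 to 7 calls in R50 against CDK2-/-, 6 in CDK2-/- against WT and 5 to 7 in R50 against WT. Averaging all probes of a gene lowered PARP10, whose other probe is dim, to 1.88 in R50 against CDK2-/- and -2.69 in CDK2-/- against WT, and ended the PARP1 call in R50 against CDK2-/- (adjusted p = 0.05105). Without a filter on dim probes the PARP1 calls (adjusted p = 0.0747 and 0.06336) and the PARP2 call in R50 against WT (adjusted p = 0.09778) were lost. Normexp correction lowered PARP10 to 3.01 in R50 against CDK2-/- and -3.81 in CDK2-/- against WT. Normexp correction, quantile normalization, a stricter filter, the authors' values, the 4 arrays of the slide alone (R50 against CDK2-/-) and an intensity-dependent prior variance changed no call. Replicate numbers did not pair the arrays, since differences between replicates correlated at -0.028 to 0.0452 between groups. With the replicate number as a block 7, 6 and 7 genes were called, as without it, and 9418, 8297 and 5652 probes in place of 9953, 8932 and 6523. A probe not well above background gives only a bound.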
